A study of Caenorhabditis elegans with 2 samples.

Results

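The 8 genes described here encode the subunits of the DREAM complex of Caenorhabditis elegans: efl-1 (E2F), dpl-1 (DP), lin-35 (the Rb-like pocket protein) and the MuvB subunits lin-9, lin-37, lin-52, lin-53 and lin-54. They were listed by name, and each matched 1 of the 19973 protein-coding genes annotated on the 6 nuclear chromosomes. The measurement is the binding of OEF-1, a factor known from the worm germline, found by chromatin immunoprecipitation and sequencing (ChIP-seq). The 2 samples, labelled biological replicates 3 and 4, form 1 group: whole hermaphrodites of strain OP383 in the L4 larval stage, collected 52 h after release from synchronization as starved L1 larvae. Both carry unc-119(tm4063) III and the insertion wgIs383, whose oef-1 gene (F49E8.2) ends in a GFP-FLAG tag, and chromatin was immunoprecipitated through the GFP. Each sample is chromatin of many animals and all tissues, so a peak cannot be assigned to a cell type. No untagged strain was set against these samples, and read depth, which sets the precision of a peak, is unknown.

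E2F and DP proteins bind DNA as a pair, and a pocket protein bound to them links them to the MuvB subunits. In most animals the complex holds cell cycle genes silent in cells that do not divide. In C. elegans it was found through the synMuv B genes, which restrain vulval development, and it keeps germline genes off in somatic cells, while EFL-1 and DPL-1 also act in the germline during oogenesis. Whether OEF-1 is recovered at the genes of the complex itself is the question of the values below.

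The sequences under the summits, the highest points of the peaks, are shown first for 3 members with a peak in the authors' optimal list and then for the 3 members without one. Those of lin-35 and lin-53, which also have such a peak, are not shown. The display is thus no measure of how often the letters marked below occur. The sequences are read 5' to 3' on the strand of the gene from the RefSeq copy of WBcel235, the assembly of the ce11 coordinates used throughout. The first pair are the 250 bases before the annotated 5' end of efl-1 (chrV:16965676-16965925, minus strand) and of lin-9 (chrIII:8904132-8904381, minus strand). The third is the 60 bases around the lin-54 summit that carry no annotated UTR (chrIV:13240652-13240711, plus strand). Capitals mark E2F-like letters (GCGCGAA or GCGGGAA on either strand, so also TTCGCGC or TTCCCGC) and letters of the CHR element that LIN-54 proteins bind (TTTGAA or TTCGAA on either strand, so also TTCAAA).
efl-1: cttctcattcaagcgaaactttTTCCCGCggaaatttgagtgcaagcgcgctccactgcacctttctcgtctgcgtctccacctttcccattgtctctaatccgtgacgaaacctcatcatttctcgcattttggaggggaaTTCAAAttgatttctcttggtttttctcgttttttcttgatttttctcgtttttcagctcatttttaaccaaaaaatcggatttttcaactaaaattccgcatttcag
lin-9: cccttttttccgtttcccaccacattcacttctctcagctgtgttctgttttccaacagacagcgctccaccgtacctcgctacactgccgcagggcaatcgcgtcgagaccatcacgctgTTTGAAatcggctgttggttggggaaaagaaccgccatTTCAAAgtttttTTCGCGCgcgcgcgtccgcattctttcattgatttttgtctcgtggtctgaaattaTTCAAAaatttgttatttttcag
lin-54: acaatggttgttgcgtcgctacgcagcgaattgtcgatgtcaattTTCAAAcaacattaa
The summit is base 55 of the efl-1 sequence, base 121 of the lin-9 sequence and base 10 of the lin-54 sequence.

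For the members without an optimal peak, the 101 bases around the summit of the nearest pooled candidate are shown. They lie at dpl-1 (chrII:9169723-9169823, plus strand), lin-37 (chrIII:7072492-7072592, minus strand) and lin-52 (chrIII:9824683-9824783, minus strand). Capitals mark the annotated start codon in lin-37 and lin-52, and the dpl-1 window holds none of the E2F-like or CHR letters. These windows cover other stretches than the sequences above, so the letters shown cannot be compared between them. Outside the windows, CHR letters begin 237 bp upstream of dpl-1 and 129 and 204 bp upstream of lin-37. In the 300 bases from 250 before to 50 after the 5' end, lin-35, with an optimal peak, and lin-52, without one, held neither kind.
dpl-1: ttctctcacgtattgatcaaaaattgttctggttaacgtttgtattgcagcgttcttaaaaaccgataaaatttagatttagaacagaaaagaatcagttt
lin-37: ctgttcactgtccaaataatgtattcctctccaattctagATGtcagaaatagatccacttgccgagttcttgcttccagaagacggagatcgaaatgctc
lin-52: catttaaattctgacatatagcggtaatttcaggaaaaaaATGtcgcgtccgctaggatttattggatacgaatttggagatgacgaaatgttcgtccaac
In each of these windows the summit is base 51. In the pooled list the lin-37 and lin-52 summits thus lay just inside the coding sequence, and the efl-1, lin-9 and lin-54 summits between genes. In replicate 4 the nearest summits lay 11 bp upstream of lin-37 and 73 bp upstream of lin-52, between genes, and that of lin-54 lay in the rpl-12 5' UTR.

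OEF-1 peaks of the optimal list stood upstream of 5 of the 8 DREAM genes: lin-54, lin-53, lin-9, lin-35 and efl-1. The DP gene dpl-1 and the MuvB genes lin-37 and lin-52 had none. A gene was counted when a summit lay within 1000 bp of its annotated 5' end. By that count 62.5% of the members had an optimal summit, against 5.28% of all coding genes (1054 of 19973). With a distance of 200 bp the members with an optimal summit were 3, efl-1, lin-35 and lin-9, against 1.89% of coding genes. The optimal list holds 1339 peaks that the authors kept by a rule on how alike peaks rank in the replicates. They were the peaks ranked 1 to 1339 by signal in the pooled candidate list, so a single peak need not rank alike in both. Of the 1318 nuclear optimal summits, 1290 had a summit within 200 bp in both replicate lists. With 8 genes and 1 group there is no test of this share, and the genes were picked with earlier results of these data known.

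Each replicate alone gave nearly the same members, with efl-1 at the border. The candidate lists hold background on purpose, so each was limited to its 1339 peaks of highest signal. In replicate 3, 4 of the 8 members had such a summit within 1000 bp (5.26% of all coding genes), and in replicate 4, 5 did (5.46%). In both replicates together it was 4, namely lin-35, lin-9, lin-53 and lin-54, against 3.64% of coding genes. The member that differed between replicates was efl-1, at rank 1458 in replicate 3 and 1021 in replicate 4.

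**Figure D1:**
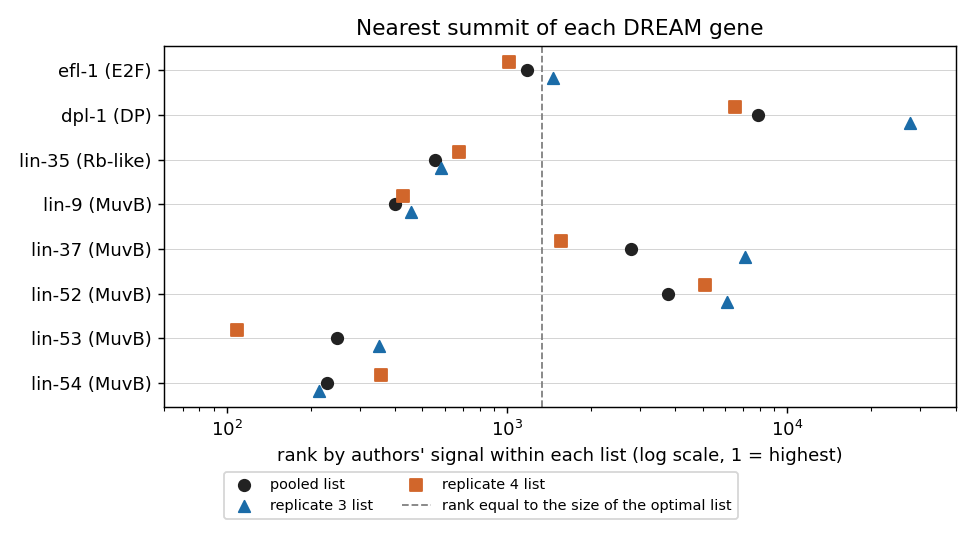
Rank of the summit nearest to each DREAM gene (log scale, 1 is the highest signal) in the pooled, replicate 3 and replicate 4 candidate lists; the dashed line stands at rank 1339, the size of the optimal list. All points of lin-35, lin-9, lin-53 and lin-54 lie left of the line, efl-1 straddles it, and dpl-1, lin-37 and lin-52 lie right of it.

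In the whole candidate lists, weak peaks included, each of the 8 members had a summit within 1000 bp. Such a summit was common: 45.0% of coding genes had one in the pooled list, 46.6% in the list of replicate 3, 42.0% in that of replicate 4 and 29.3% in all of them. The median pooled signal of the nearest summit was 97.2 over the 8 members and 22.4 over the 8982 coding genes that had one. In replicate 3 the medians were 66.7 and 16.5, and in replicate 4 they were 29.5 and 11.0. The median of the members was thus the higher one in each list, but dpl-1, at 9.86 in replicate 3, lay below the median of all genes there. The signal is the authors' own value, its scale is not stated, and it is compared here only within a list.

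The E2F gene efl-1 (WBGene00001161, chromosome V, 16958590 to 16965675, minus strand), whose protein is the DNA-binding partner of DPL-1, had the weakest of the 5 optimal peaks. The peak (chrV:16965651-16966090) had a pooled signal of 78.7 at rank 1183, near the bottom of the optimal list, whose lowest signal was 74.0. Its signal was 52.0 in replicate 3, below the 54.6 of the peak ranked 1339 there, and 26.9 in replicate 4, above the corresponding 24.0. The efl-1 peak thus lies just inside the authors' threshold in the pooled data, just outside the same number of peaks in replicate 3, and inside it in replicate 4. The summit lay 196 bp upstream of the 5' end in the pooled list and in replicate 3, and 148 bp upstream in replicate 4. The E2F-like letters TTCCCGC begin 228 bp upstream of the efl-1 5' end, on the far side of that summit. The F-box gene fbxa-90 starts on the other strand 943 bp from the summit, so the peak was much nearer efl-1.

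The DP gene dpl-1 (WBGene00001061, chromosome II, 9169910 to 9172565, plus strand) had only weak candidates. The nearest pooled summit, 137 bp upstream, had a signal of 27.8 at rank 7863 of 30000. A stronger one 343 bp upstream had a signal of 31.7 at rank 5969. In replicate 3 the nearest summit had a signal of 9.86 at rank 27537, close to the end of the list, and one 416 bp upstream had 17.1 at rank 11804. In replicate 4 the signal was 13.1 at rank 6509 of 23600. By the nearest summit, efl-1 stood within the first 4.86% of each of these 3 lists and dpl-1 beyond the first 26.2%. The 5' end of dpl-1 lies inside T23G7.2, a gene on the other strand, and its nearest pooled summit fell in an annotated exon of that gene. No optimal summit lay nearer than 41979 bp.

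The Rb-like gene lin-35 (WBGene00003020, chromosome I, 5807709 to 5815637, plus strand), the only pocket protein gene of the worm, had a peak upstream, at 5807325 to 5807764. Its pooled signal was 115.8, at rank 555. In replicate 3 its signal was 81.4 at rank 584, and in replicate 4 it was 32.1 at rank 673. Its place in the lists was thus close in both samples, and the summits of the replicates lay 14 bp apart. The summit stood 164 bp upstream of lin-35 and 254 bp from the 5' end of vps-51, a gene of vesicle tethering that starts on the opposite strand. The 5' ends of this pair are 418 bp apart, and the peak cannot be assigned to either gene by position alone.

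Among the MuvB genes, lin-9 (WBGene00002998, chromosome III, 8900237 to 8904131, minus strand) had a peak with no other gene's start near it. Its pooled signal was 132.1 at rank 400 (chrIII:8904041-8904480). In replicate 3 the signal was 93.6 at rank 455 and in replicate 4 it was 38.4 at rank 428. The summits lay 130, 142 and 107 bp upstream of the 5' end in the pooled, replicate 3 and replicate 4 lists. No other gene of any annotated kind had its 5' end within 1000 bp of the lin-9 summit, and lin-9 was the only one of the 5 members with an optimal peak for which this held. In the lin-9 sequence TTTGAA begins at the base after the summit, TTCAAA follows 91 bp upstream of the 5' end, and TTCGCGC 79 bp upstream.

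The peak at lin-53 (WBGene00003036, chromosome I, 9618196 to 9619760, minus strand) had the highest rank of the 8 genes in replicate 4 and the next to highest in replicate 3. LIN-53 is a histone-binding WD-repeat protein of the RbAp48 family that also serves other chromatin complexes. The peak, 217 bp wide at 9619876 to 9620092, had a pooled signal of 159.2 at rank 247. In replicate 3 the signal was 103.2 at rank 350, and in replicate 4 it was 61.3 at rank 109. The peak stood midway between lin-53 and nra-2, which start head to head 467 bp apart. The pooled summit was 228 bp from lin-53 and 239 bp from nra-2, the replicate 3 summit 255 and 212 bp, and the replicate 4 summit 211 and 256 bp. The nearer gene therefore changed with the list: lin-53 in the optimal list and in replicate 4, nra-2 in replicate 3.

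The peak at lin-54 (WBGene00003037, chromosome IV, 13241044 to 13243401, plus strand) had the highest pooled signal of the 8 genes, 164.8 at rank 228 (chrIV:13240601-13240829). LIN-54 is the subunit that binds CHR letters in DNA. In replicate 3 the signal was 123.9 at rank 213, and in replicate 4 it was 40.9 at rank 357. The peak lay nearer to a neighbour, since its summit was 383 bp upstream of lin-54 but 10 bp from where rpl-12, a ribosomal protein gene on the other strand, begins. The replicate 3 summit was 35 bp and the replicate 4 summit 8 bp from that 5' end. Counted only for the nearest coding gene, this peak belongs to rpl-12 and 4 members keep an optimal summit, against 3.94% of all coding genes. A further optimal summit, with a signal of 129.0 at rank 424, lay 1443 bp upstream of lin-54, beyond the distance used, and 187 bp from the 5' end of tag-115.

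The MuvB genes lin-37 (WBGene00003022, chromosome III, 7070890 to 7072552, minus strand) and lin-52 (WBGene00003035, chromosome III, 9824083 to 9824750, minus strand) had candidates at their 5' ends that stayed below the optimal threshold. At lin-37 the pooled summit lay 10 bp inside the gene, with a signal of 47.1 at rank 2784. There the replicates differed: the signal was 22.1 at rank 7088 in replicate 3 and 22.4 at rank 1560 in replicate 4. In replicate 4 the lin-37 candidate had the highest −log10 q-value of that list, 2.55, shared by 1585 peaks, while in replicate 3 it had 0.929 against a highest value of 2.50. Its pooled value was 2.57, against a highest value of 2.75 in the pooled list. At lin-52 the pooled summit lay 17 bp inside the gene, with a signal of 39.7 at rank 3780, with 23.7 at rank 6140 in replicate 3 and 14.3 at rank 5119 in replicate 4. Of the members without an optimal peak, lin-37 came nearest to the threshold in the pooled list and in replicate 4, and lin-52 in replicate 3.

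**Figure D2:**
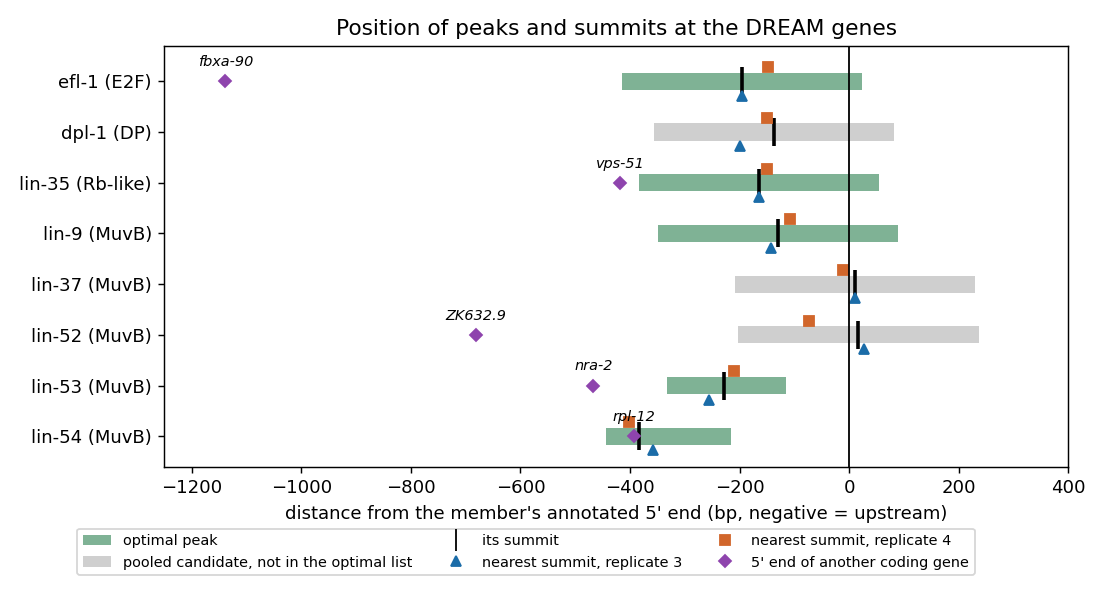
Peaks at each DREAM gene by distance in bp from its annotated 5' end (vertical line; negative is upstream). Green bars are optimal peaks and grey bars are pooled candidates that are not in the optimal list, with the summit as a black tick, the nearest replicate summits as triangles (replicate 3) and squares (replicate 4), and 5' ends of other coding genes within 1000 bp of the summit as diamonds. The 5 optimal summits lie 130 to 383 bp upstream, and the rpl-12 5' end sits on the lin-54 summit.

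Ordered by pooled signal, the members ran lin-54, lin-53, lin-9, lin-35, efl-1, lin-37, lin-52 and dpl-1. Of the 19973 coding genes, 115 had a nearest pooled summit of higher signal than lin-54 (0.576%), 131 than lin-53, 224 than lin-9, 315 than lin-35 and 652 than efl-1 (3.26%). The number was 1493 for lin-37, 1932 for lin-52 and 3333 for dpl-1 (16.7%). A gene whose nearest candidate is weak can have a stronger summit farther off, so these numbers are larger by optimal summits alone. In the optimal list 176 coding genes stood above lin-54 (0.881%), 195 above lin-53, 327 above lin-9, 455 above lin-35 and 937 above efl-1 (4.69%). The order of lin-54 and lin-53 was not firm, since lin-54 ranked higher in replicate 3 (213 against 350) and lin-53 in replicate 4 (109 against 357). The order of lin-9 and lin-35 was the same in both replicates, and so was that of lin-35 and efl-1. The order of lin-37 and lin-52 turned between replicates.

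All 5 optimal summits at members lay upstream, at a median of 196 bp. Among the 1054 coding genes with an optimal summit, 77.6% had it upstream, and the median position was 198 bp upstream. The members' peaks thus sat where peaks at other genes sat. For 4 of these 5 members (efl-1, lin-35, lin-53 and lin-54) another coding gene had its 5' end within 1000 bp of the same summit, and the same held for 53.0% of the 1054 genes. None of the optimal summits at members lay close to a tRNA, snoRNA or snRNA gene, the nearest being 1584 bp away at lin-54 (JC8.15). The replicate summits at these 5 genes lay 14 to 48 bp apart, around the median of 32 bp over the 1290 nuclear optimal summits found within 200 bp in both replicates.

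The arrangement of neighbouring genes was described after the values were seen. Each of the 5 members with an optimal peak had, as its nearest coding gene upstream, one that starts on the opposite strand. The same held for dpl-1, which has no optimal peak: T23G7.3 lies head to head with it, 2079 bp away. The 5' end of dpl-1 also lies inside T23G7.2, and dpl-1 is counted by that overlap below. Of the members without an optimal peak, lin-37 lies 60 bp behind ZK418.5 and lin-52 lies 126 bp behind ZK632.9, both on the same strand. None of ZK418.5, ZK632.9 and T23G7.2 had an optimal summit within 1000 bp of its 5' end either. Over all coding genes, an optimal summit was in reach of 7.13% of 8420 genes with a head-to-head neighbour upstream and of 6.62% of 3534 genes within 500 bp behind a same-strand gene. The share was 4.74% of 1391 genes whose 5' end lies inside another coding gene and 2.33% of 6623 genes farther behind a same-strand gene. Among all genes, the arrangement of lin-37 and lin-52 thus had a share close to that of the 5 members with a peak.

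**Figure D3:**
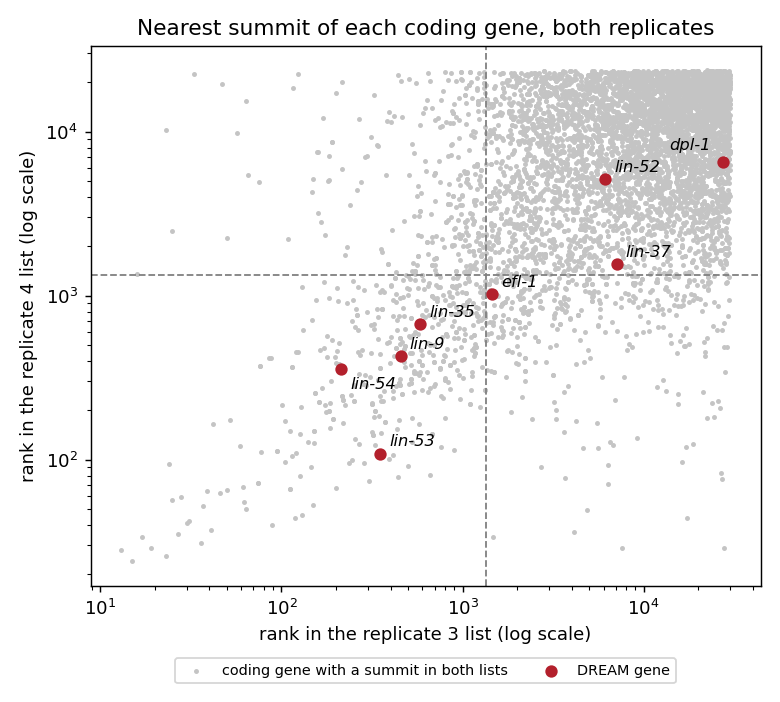
Rank of the nearest summit within 1000 bp of each coding gene in replicate 3 (x axis) and replicate 4 (y axis), on log scales, with the DREAM genes in red; dashed lines stand at rank 1339. The lower left holds lin-35, lin-9, lin-53 and lin-54, with lin-53 at 350 and 109 and lin-54 at 213 and 357, while dpl-1 (27537 and 6509) lies at the upper right.

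The E2F-like letters were found near 1 of the 5 optimal summits, that of efl-1, when 50 bp on each side were searched. They occurred in 7.21% of the 1318 nuclear optimal windows of that length. With 100 bp on each side they were found at 3 of the 5, lin-9 and lin-53 being added, and in 11.9% of all windows. Within 50 bp, the CHR letters were found at lin-9, lin-53 and lin-54, against 27.6% of windows. With 100 bp on each side they were found at 4 of the 5, efl-1 being added, and in 51.7% of all windows. In the 300 bases from 250 before to 50 after the 5' end, the E2F-like letters were present at efl-1, lin-9 and lin-53, which is 3 of the 8 members, and at 5.02% of all coding genes. The CHR letters were present at 6 of the 8 and at 68.9% of coding genes, a share close to that of all genes. In that stretch of lin-53 the E2F-like letters begin 143 bp upstream of the 5' end. These are matches of letters and not measured binding sites of the DREAM complex.

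Of 3 GC-rich 6-mers that were picked earlier as more frequent at OEF-1 summits than beside them, each was near at most 1 of the 5 summits. GGCGCA was near none of the 5 summits and at 14.0% of all optimal summits, ACGCGC was near that of lin-53 (10.9% of all), and GCGCCA near that of lin-54 (11.2%), on either strand. They were picked on the whole optimal list, which holds the members' peaks. In the 300 bases at the 5' end, ACGCGC was present at dpl-1, lin-35, lin-9 and lin-53, which is 4 of the 8 members, and at 5.92% of all coding genes. At lin-35, lin-9 and lin-53 this stretch overlaps the optimal peak, which was among those the letters were picked on. The comparison with all coding genes is thus not an independent result. In the same 300 bases GGCGCA was present at 0 of the 8 (5.72% of all) and GCGCCA at 0 of the 8 (5.08% of all). The GC content of the 101 bases at the 5 optimal summits was 50.5% at efl-1, 44.6% at lin-35, 52.5% at lin-9, 55.4% at lin-53 and 48.5% at lin-54, against a median of 44.6% over all nuclear optimal summits. The candidates without an optimal peak lay in windows of 29.7% (dpl-1), 42.6% (lin-37) and 37.6% (lin-52), each below the members with one. These windows differ in kind, since their summits lay in a T23G7.2 exon and in coding sequence, and the 5 optimal summits between genes. No GC value over all pooled candidates is given.

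Genes that act with the complex were set beside it. Of 22 other regulators of the Rb and E2F pathway and the synMuv B class, such as cyd-1 and cdk-4, the cyclin D kinase that acts on LIN-35, and the chromatin genes hpl-2 and met-2, 1 had an optimal summit within 1000 bp (4.55%, against 5.28% of all coding genes). That gene was tam-1, with a signal of 145.3 and the summit 641 bp upstream. Their median signal of the nearest pooled candidate was 22.5, over the 17 that had one, close to the 22.4 of all coding genes. For tam-1 that nearest candidate, at 22.5, was not its optimal summit, so the median does not count the stronger peak. E2F relatives efl-2 and efl-3 and the LIN-53 paralogue rba-1 were among those without an optimal summit.

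Cell cycle and replication genes, many of which E2F proteins control in other animals, had an optimal summit in 10 of 37 cases (27.0%, against 5.28% of all coding genes). The count was 6 when a summit counted only for its nearest gene, against 3.94% of coding genes. It was 7 with a distance of 500 bp (3.87% of coding genes) and 3 with 200 bp (1.89%). The highest signals were at hcp-3 (357.9), the centromeric histone H3, and pcn-1 (281.8), the sliding clamp. Next came psf-3 (141.6), of the GINS complex, lig-1 (134.7), a DNA ligase, rfc-4 (133.7), of the clamp loader, and cdc-6 (116.7), of origin licensing. The helicase genes mcm-2 (116.2) and mcm-4 (105.1) followed. At psf-3, lig-1 and cdc-6 another coding gene lay nearer to the summit (icd-2, C29A12.1 and acin-1). The hcp-3 summit lay 675 bp upstream and the psf-3 summit 981 bp downstream of the 5' end, farther than any optimal summit at a DREAM gene. Of the 37, 6 had a summit among the 1339 strongest of both replicates, against 3.64% of all coding genes, and these 6 were among the 10. The signals at lin-54, lin-53 and lin-9 thus lay within the range of the named replication genes, below hcp-3 and pcn-1. The gene oef-1 itself had a summit with a pooled signal of 220.9 at rank 105, above every DREAM gene, in a strain that carries a further, tagged copy of oef-1. In replicate 4 it ranked 417, below lin-53 and lin-54.

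**Figure D4:**
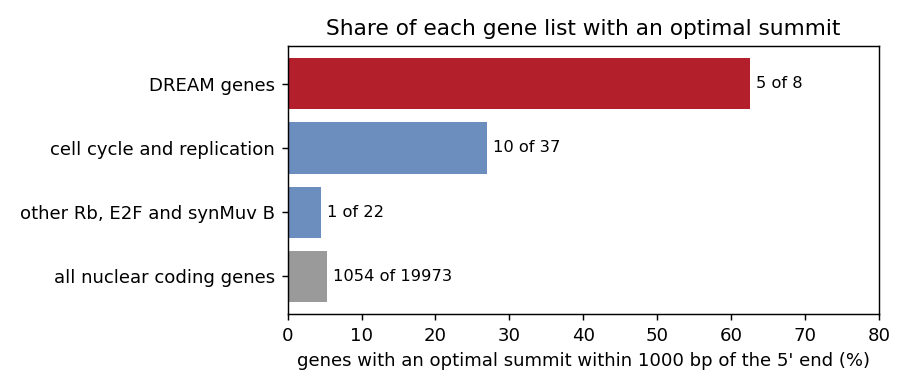
Share of genes (%, bars from 0) with an optimal summit within 1000 bp of the 5' end, with counts beside the bars: 5 of 8 DREAM genes, 10 of 37 cell cycle and replication genes, 1 of 22 other Rb, E2F and synMuv B genes and 1054 of 19973 nuclear coding genes.

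For each member with an optimal peak, the gene most like it was the coding gene on another peak with the closest ranks in the pooled list and both replicate lists. These were rpl-7A for lin-54, gpa-1 for lin-53, npp-8 for lin-9, spe-48 for lin-35 and gly-10 for efl-1. The root mean square difference of log2 ranks over the 3 lists was between 0.05 for gly-10 and 0.12 for gpa-1.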

How the data were processed

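Peak lists from ChIP-seq of 2 samples were used, on ce11 coordinates. Per the deposited README texts, a candidate list was made from each replicate's alignment with 1 control file, a pooled candidate list from both alignments, and the optimal list from these by IDR, a rule on the reproducibility of ranks between replicates. The lists hold 1339 (optimal), 30000 (pooled), 30000 (replicate 3) and 23600 (replicate 4) peaks. Depth, aligner and peak caller, with versions, are details not given in the sources used. The deposited signal of each peak has no stated scale, and its values and ranks were compared only within a list. The deposited −log10 q-value was 2.75 for each optimal peak. The lists on ce10 were not used, since no annotation of that build was at hand.

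Summits (peak start plus offset, 1-based) were set against 5' ends of genes in the Ensembl release 115 annotation of WBcel235. The summit nearest to a gene within 1000 bp was taken, and every gene in reach of a summit was counted. Worm transcripts are often trans-spliced, so an annotated 5' end can lie downstream of the transcription start. The control alignment was not analysed here. No test was made: there is 1 group, genes that share a peak are not independent, and 8 genes are described by counts beside all 19973. Members and lists were chosen with earlier results of these data known. Of 23 names written for the Rb, E2F and synMuv B list, 22 matched. Named are the members, genes sharing their peaks, oef-1, up to 8 genes of each list by signal, and the genes of most similar rank; others were named after their values were seen. The assignment and letter search were checked on simulated data with planted cases. Alternatives changed the distance, the kind of 5' end, the list and the letter window. Python 3.11.15 and pandas 2.3.3 were used.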

Additional observations from a re-analysis of the deposited data

How the results depend on the processing

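With 200 bp in place of 1000 bp, 3 members (efl-1, lin-35 and lin-9) had an optimal summit, 2 (lin-35 and lin-9) had one among the top peaks of both replicates, and the counts were 0 for the other Rb, E2F and synMuv B genes, 3 for cell cycle and replication genes and 378 for all coding genes. With 500 bp the same 5 members had an optimal summit, against 3.87% of coding genes. The other Rb, E2F and synMuv B genes then had 0. Counting a summit only for the nearest gene left 4 members, and 2 members in both replicates. The lin-54 peak then went to rpl-12, and in 1 replicate the lin-53 peak went to nra-2. With this count 6 cell cycle genes and 786 coding genes (3.94%) kept an optimal summit. The upper 669 peaks of the optimal list left 4 members, without efl-1, and 572 coding genes. The top peaks of 1 replicate alone gave 4 to 5 members, 1 to 3 other Rb, E2F and synMuv B genes (cye-1 and lin-36 were added in replicate 4 alone), 7 to 10 cell cycle genes and 1050 to 1091 coding genes. Transcript 5' ends or start codons in place of the gene's 5' end kept the same 5 members, and the signals at members stayed as given. Only 1 member peak, that of lin-54, overlapped another gene's span. E2F-like letters were found at 3 of 5 summits with 100 bp on each side (11.9% of all windows) and at 2 with windows at the middle of the peak (7.66%). CHR letters were found at 4 of 5 with 100 bp on each side (51.7%) and at 3 with windows at the middle of the peak (26.9%). With 2678 top peaks in each replicate efl-1 joined the members in both, 5 in all, and with 669 there were 3, without lin-35. For none of the counts in both replicates under these alternatives is a share over all coding genes given, so they cannot be set beside one. No paired analysis was possible because there is 1 group.

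The members without an optimal peak had candidates that ranked below the optimal threshold, which does not show them to be unbound. The depth behind the lists is unknown.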
